A study of Homo sapiens with 6 samples.

Results

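Chemokines are small secreted proteins that draw leukocytes along a gradient, and 10 of them that carcinoma cells can make were followed through RNA sequencing of Cal27, an established human cell line grown out of a tongue squamous cell carcinoma. The list joins the neutrophil-attracting CXCL1, CXCL2, CXCL3, CXCL5 and CXCL8, the interferon-induced CXCL10 and CXCL11, and CCL20, CCL5 and CXCL16. Rows of the raw count table were taken by Ensembl identifier without its version, which gave 9 of the 10 among 57820 identifiers. CCL5 had no row under its identifier in the name table and was not analysed here.

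The cells fell into 3 groups of 2 biological replicates, all with batch 1 in the labels. CRNN cells carried the Cornulin overexpression construct on a lentivirus, and GFP cells carried the GFP control vector on a lentivirus. Both received polybrene at 8 µg/ml and were harvested 48 h after transduction. Untreated cells are labelled wild type, and the labels give them neither polybrene nor a harvest time, so effects of the virus, the polybrene and the time cannot be told apart in a difference from them. The promoters that drive CRNN and GFP are not given in the sources used here. All libraries came from 1 cell line, which holds no leukocytes or stroma of a tumour.

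The neutrophil-attracting members CXCL1, CXCL2, CXCL3, CXCL5 and CXCL8 bind the receptor CXCR2, CXCL8 also CXCR1, and epithelial cells switch their genes on quickly when IL-1, TNF or microbial products activate NF-kB. CXCL10 and CXCL11 bind CXCR3 on activated T cells and are induced by interferons, often together with NF-kB. CCL20 calls CCR6-bearing cells to epithelia, and CXCL16 is made as a membrane protein that ADAM10 and ADAM17 shed and that CXCR6 binds. The messenger RNAs of several of these genes carry AU-rich motifs and decay quickly.

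Promoter sequences show what the genes share outside the counts. RefSeq windows from 250 bases before to 50 bases after the annotated start (GRCh38.p14) were held for 8 of the 9 genes, all but CXCL16. Each of the 8 held the kappaB-like motif GGANNNTCC, which reads the same on both strands and occurred in 9.32% of 35116 promoter windows of that length. Windows of 5 members are shown, CXCL8, CXCL1, CXCL10 and CXCL11 because they had the most counts in the library with the highest levels and CXCL5 because it held the motif and had almost no counts. Capitals mark the kappaB-like motif and the interferon-response-like motif, which is GAAA, any 2 bases and GAAA.
CXCL8, chr4:73740319-73740618, plus strand: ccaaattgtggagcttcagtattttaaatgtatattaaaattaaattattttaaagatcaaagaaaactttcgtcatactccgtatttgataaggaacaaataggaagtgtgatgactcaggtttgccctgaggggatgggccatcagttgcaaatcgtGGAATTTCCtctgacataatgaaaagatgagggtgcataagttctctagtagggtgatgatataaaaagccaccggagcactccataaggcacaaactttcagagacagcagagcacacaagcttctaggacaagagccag
CXCL1, chr4:73869143-73869442, plus strand: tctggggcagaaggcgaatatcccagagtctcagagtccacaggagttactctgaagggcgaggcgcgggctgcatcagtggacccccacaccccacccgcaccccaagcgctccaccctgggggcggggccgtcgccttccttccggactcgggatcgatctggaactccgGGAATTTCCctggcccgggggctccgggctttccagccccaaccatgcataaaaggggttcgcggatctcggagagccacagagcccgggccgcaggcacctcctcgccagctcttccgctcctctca
CXCL10, chr4:76023448-76023747, minus strand: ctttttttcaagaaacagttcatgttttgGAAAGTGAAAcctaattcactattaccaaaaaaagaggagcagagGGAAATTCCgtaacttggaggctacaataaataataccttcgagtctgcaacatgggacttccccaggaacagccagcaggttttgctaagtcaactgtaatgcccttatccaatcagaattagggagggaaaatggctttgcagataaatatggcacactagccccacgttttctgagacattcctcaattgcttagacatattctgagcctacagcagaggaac
CXCL11, chr4:76036021-76036320, minus strand: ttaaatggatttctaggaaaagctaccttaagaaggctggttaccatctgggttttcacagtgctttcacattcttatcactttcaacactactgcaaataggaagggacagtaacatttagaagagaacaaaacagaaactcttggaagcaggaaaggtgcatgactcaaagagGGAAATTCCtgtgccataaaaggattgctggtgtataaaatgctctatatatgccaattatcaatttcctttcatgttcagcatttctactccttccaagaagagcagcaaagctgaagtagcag
CXCL5, chr4:73998628-73998927, minus strand: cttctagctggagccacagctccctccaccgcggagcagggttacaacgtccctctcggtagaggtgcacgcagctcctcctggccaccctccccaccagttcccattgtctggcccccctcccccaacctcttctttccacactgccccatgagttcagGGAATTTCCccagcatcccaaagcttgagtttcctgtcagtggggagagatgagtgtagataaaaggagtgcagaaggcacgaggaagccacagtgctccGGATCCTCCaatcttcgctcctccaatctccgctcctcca
The stretch ggaatttcc stood 78 bases before the start in CXCL1, 77 bases before it in CXCL2 and 78 bases before it in CXCL3, counted to the motif's first base. In CXCL5 and CXCL8 the same letters began 90 and 91 bases before the start, and CXCL5 had another match 11 bases after it. CXCL10 and CXCL11 carried ggaaattcc, 176 and 75 bases before the start, and CCL20 carried ggattctcc at 207 bases.

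The interferon-response-like motif, searched on both strands like the others, was found in CXCL10 alone of the 8, at 221 bases before the start, and in 3.57% of all windows. The kappaB-like and the interferon-response-like motif occurred together in 0.308% of windows. The AP-1-like motif TGANTCA was in CXCL8 and CXCL11, against 7.71% of all windows. The TATA-like motif TATAAA was in CXCL8, CXCL11 and CCL20, against 11.5%. The motifs overlapped one another in none of the 8 windows. These are matches of letters in a short window, and no binding was measured.

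**Figure D1:**
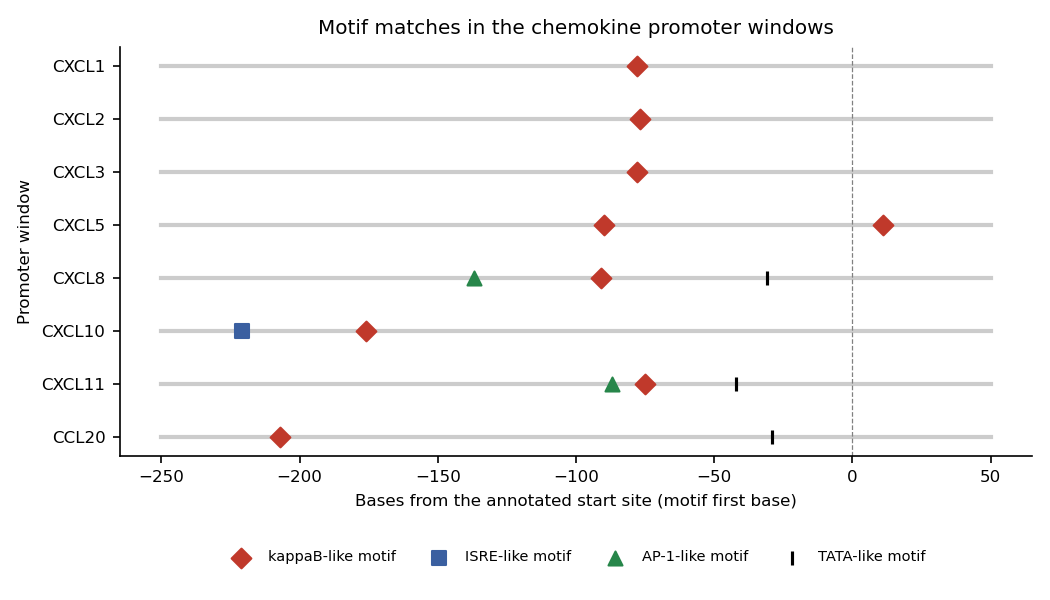
Motif matches (symbols) along the 8 promoter windows (rows), placed by the distance in bases of the motif's first base from the annotated start site. A kappaB-like match lies in every row, between 75 and 207 bases before the start, with 1 further match 11 bases after it in CXCL5.

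The libraries held between 11817105 and 28041227 counts, and 3 counts corresponded to between 0.115 and 0.239 CPM, the count divided by the TMM-adjusted size of its library. CRNN itself had 964 and 1028 CPM in the CRNN libraries, 3.06 and 2.55 CPM in the GFP libraries and 3.51 and 2.08 CPM in the untreated libraries, as the labels say. Epithelial markers such as KRT5 and TP63 were detected in every library, with the 10 markers summing to between 4607 and 7158 CPM. The 14 immune markers summed to between 6.65 and 10.3 CPM. Most of this was CD14, with 8.34 and 7.22 CPM in CRNN, 4.41 and 4.23 CPM in GFP, and 5.27 and 5.52 CPM in untreated cells. PTPRC and LYZ had between 5 and 20 counts per library, and CD2 was at 0 in every library. The 9 fibroblast markers summed to between 4.04 and 9.50 CPM. Untreated replicate 1 stood apart: 156 of 16396 tested genes were more than 4-fold higher there than in every other library and 71 more than 4-fold lower. The other 5 libraries had at most 10 and 19 such genes. Fits of the chemokines and of related gene lists against the untreated group are therefore given also with each of its libraries left out.

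The main pattern is that untreated replicate 1 stood above the other 5 libraries for most of these genes, by factors that differed between them. Summed over the 9 members, the level was 30.1 and 32.2 CPM in the CRNN libraries, 28.7 and 19.1 CPM in the GFP libraries, and 176 and 25.3 CPM in untreated replicates 1 and 2. Without CXCL16 the other 8 members summed to 4.49 and 6.11 CPM in CRNN cells, 3.17 and 1.84 CPM in GFP cells, and 97.1 and 2.72 CPM in untreated replicates 1 and 2. Of the 7 members with enough counts to be tested, 5 exceeded every other library more than 4-fold in untreated replicate 1, against 0.951% of tested genes. They were CXCL1, CXCL2, CXCL8, CXCL10 and CXCL11, and CCL20, which had too few counts elsewhere to be tested, also exceeded 4-fold. CXCL10 and CXCL11 passed the filter on counts only through the untreated libraries, with 291 and 178 counts in replicate 1 and 7 and 3 in replicate 2. Their place among the 5 was thus partly set by the filter, and the share is no test of them. In RNA from whole cultures, fewer cells that express a gene and less RNA per cell cannot be told apart.

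**Figure D2:**
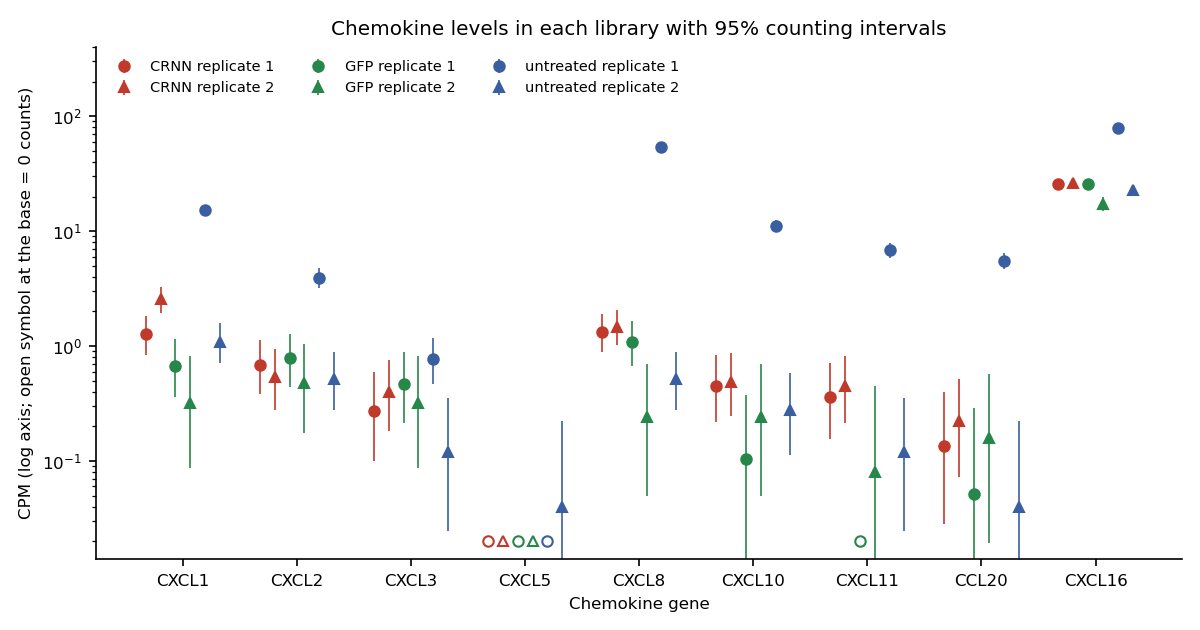
Level of each chemokine in each library in CPM on a log axis, with 95% exact Poisson intervals that cover counting error only, and open symbols at the base for 0 counts. Untreated replicate 1 (blue circles) is the highest library for 8 of the 9 genes, at 53.8 CPM for CXCL8 and 0.764 CPM for CXCL3, and CXCL5 is the exception.

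Among the neutrophil chemokines, CXCL8 (ENSG00000169429.6; GRCh38 chromosome 4, 73740519 to 73743716, plus strand), a strong attractant of neutrophils, had the most counts after CXCL16 in untreated replicate 1. The CRNN libraries held 29 and 33 counts of it, the GFP libraries 21 and 3, and the untreated libraries 1408 and 13. As levels these were 1.31 and 1.47 CPM in CRNN, 1.09 and 0.239 CPM in GFP, and 53.8 and 0.520 CPM in untreated cells. Untreated replicate 1 was thus high by itself, and untreated replicate 2 lay below both CRNN libraries and inside the range of the GFP libraries. The ratio of untreated replicate 1 to untreated replicate 2 was 103 (95% counting interval 60.2 to 195), and to the highest other library, CRNN replicate 2, it was 36.6 (25.9 to 53.3).

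CXCL1 (ENSG00000163739.4; chromosome 4, 73869393 to 73871308, plus strand), a close relative first known as a melanoma growth factor, had 28 and 57 counts in CRNN, 13 and 4 in GFP, and 400 and 27 in the untreated libraries. The levels were 1.27 and 2.54 CPM in CRNN, 0.675 and 0.319 CPM in GFP, and 15.3 and 1.08 CPM in untreated cells. Both CRNN libraries lay above both GFP libraries, and untreated replicate 1 lay above all. Untreated replicate 1 was 6.01 times CRNN replicate 2, the next library in order (4.55 to 8.08). The CRNN libraries differed between themselves by more than counting error, with a ratio of replicate 1 to replicate 2 of 0.500 (0.306 to 0.799).

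CXCL2 (ENSG00000081041.8; chromosome 4, 74097040 to 74099196, minus strand), which shares its receptor CXCR2 with CXCL1, had 0.680 and 0.535 CPM in CRNN, 0.779 and 0.479 CPM in GFP, and 3.90 and 0.520 CPM in untreated cells. Outside untreated replicate 1, with 102 counts, the gene had between 6 and 15 counts and the groups overlapped. CXCL3 (ENSG00000163734.4; chromosome 4, 74036589 to 74038807, minus strand), the third member of the GRO subfamily, had few counts in every library. Its 6 and 9 counts in CRNN, 9 and 4 in GFP, and 20 and 3 in the untreated libraries gave 0.272 and 0.401, 0.467 and 0.319, and 0.764 and 0.120 CPM. Untreated replicate 1 was 1.63 times GFP replicate 1, the next library, which is within counting error (0.711 to 4.08).

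CXCL5 (ENSG00000163735.6; chromosome 4, 73995642 to 73998677, minus strand), another CXCR2 ligand, had 1 count in untreated replicate 2 and 0 in the other 5 libraries. With a floor of 3 counts, a count of 0 allows up to between 0.115 and 0.239 CPM in these libraries (0.141 to 0.294 CPM as the upper end of the exact 95% interval), so the gene was not detectable at this depth, also where CXCL8 was abundant. The transcripts of CXCL1, CXCL2 and CXCL3 are alike: 5.33% of the 50-base windows of CXCL1 also occur in CXCL2, and 5.07% of those of CXCL2 in CXCL3. Reads from such stretches could be counted for either gene or dropped, depending on settings of the counting that the labels do not state.

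Of the interferon-induced pair, CXCL10 (ENSG00000169245.4; chromosome 4, 76021118 to 76023497, minus strand) had 10 and 11 counts in CRNN, 2 and 3 in GFP, and 291 and 7 in the untreated libraries. The levels were 0.453 and 0.490 CPM in CRNN, 0.104 and 0.239 CPM in GFP, and 11.1 and 0.280 CPM in untreated cells. Outside untreated replicate 1 the order was CRNN, then untreated replicate 2, then GFP, at 11 counts or fewer per library. The counting intervals of these single libraries overlapped. The 95% counting intervals were 0.217 to 0.834 CPM in CRNN replicate 1, 0.113 to 0.577 CPM in untreated replicate 2 and 0.0494 to 0.700 CPM in GFP replicate 2. Summed over the libraries of each group, the ratio of CRNN to GFP was 3.0 (1.10 to 10.2), with counting error only. The ratio of untreated replicate 1 to untreated replicate 2 was 39.7 (19.0 to 99.5).

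CXCL11 (ENSG00000169248.8; chromosome 4, 76033682 to 76041415, minus strand), the CXCR3 ligand of highest affinity, followed the same order. It had 8 and 10 counts in CRNN, 0 and 1 in GFP, and 178 and 3 in the untreated libraries, or 0.363 and 0.446 CPM, 0 and 0.0798 CPM, and 6.80 and 0.120 CPM. The counting interval of untreated replicate 2, 0.0248 to 0.351 CPM, overlapped those of all CRNN and GFP libraries. The ratio of untreated replicate 1 to untreated replicate 2 was 56.6 (19.1 to 277). Both genes lie inside ART3 on the other strand, and ART3 had between 0 and 2 counts in the 6 libraries. A same-strand pseudogene in CXCL11, RPL36P8, had at most 1 count.

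CCL20 (ENSG00000115009.7; chromosome 2, 227805739 to 227817564, plus strand), which attracts dendritic cells and Th17 cells through CCR6, was close to undetected in 5 libraries. It had 3 and 5 counts in CRNN, 1 and 2 in GFP, and 144 and 1 in the untreated libraries, or 0.136 and 0.223 CPM, 0.0519 and 0.160 CPM, and 5.50 and 0.0400 CPM. Untreated replicate 1 was 24.7 times CRNN replicate 2, the next library (10.3 to 77.2). Its ratio to untreated replicate 2 was 137 on a single count, with an interval of 24.3 to 5464.

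CXCL16 (ENSG00000161921.10; chromosome 17, 4733533 to 4739928, minus strand) was the 1 member expressed well in every library. It had 25.6 and 26.1 CPM in CRNN, 25.6 and 17.2 CPM in GFP, and 78.5 and 22.6 CPM in untreated cells, on 216 to 2055 counts. Untreated replicate 1 was again the highest library, 3.01 times CRNN replicate 2 (2.74 to 3.30), and the other 5 lay between 17.2 and 26.1 CPM. ZMYND15 and MED11, on the other strand across its locus, had between 5 and 52 and between 56 and 137 counts.

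Divided by the length of the annotated exons, CXCL16 was the most abundant of the 9 in every library. It had a median of 9.15 CPM per kilobase over the 5 libraries other than untreated replicate 1 (6.17 to 9.35). By the median over the same 5 libraries CXCL1 came next with 0.794 CPM per kilobase (0.234 to 1.87), then CXCL8 with 0.421 (0.0925 to 0.568), CXCL2 with 0.383 (0.343 to 0.557) and CXCL10 with 0.238 (0.0884 to 0.417). The range of CXCL16 did not meet that of any other member, and the ranges of these 4 overlapped. In both GFP libraries CXCL2 stood above CXCL1, with 0.557 and 0.343 CPM per kilobase for CXCL2 and 0.496 and 0.234 for CXCL1. CXCL3 with a median of 0.144 CPM per kilobase, CCL20 with 0.0853 and CXCL11 with 0.0674 came last before CXCL5. In untreated replicate 1 the per-length order was CXCL16 with 28.1 CPM per kilobase, CXCL8 with 20.8, CXCL1 with 11.2 and CXCL10 with 9.46. CXCL8 made up 26.0% of the summed per-length level in that library and 2.04% in untreated replicate 2, while CXCL16 made up 35.1% and 82.1%.

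**Figure D3:**
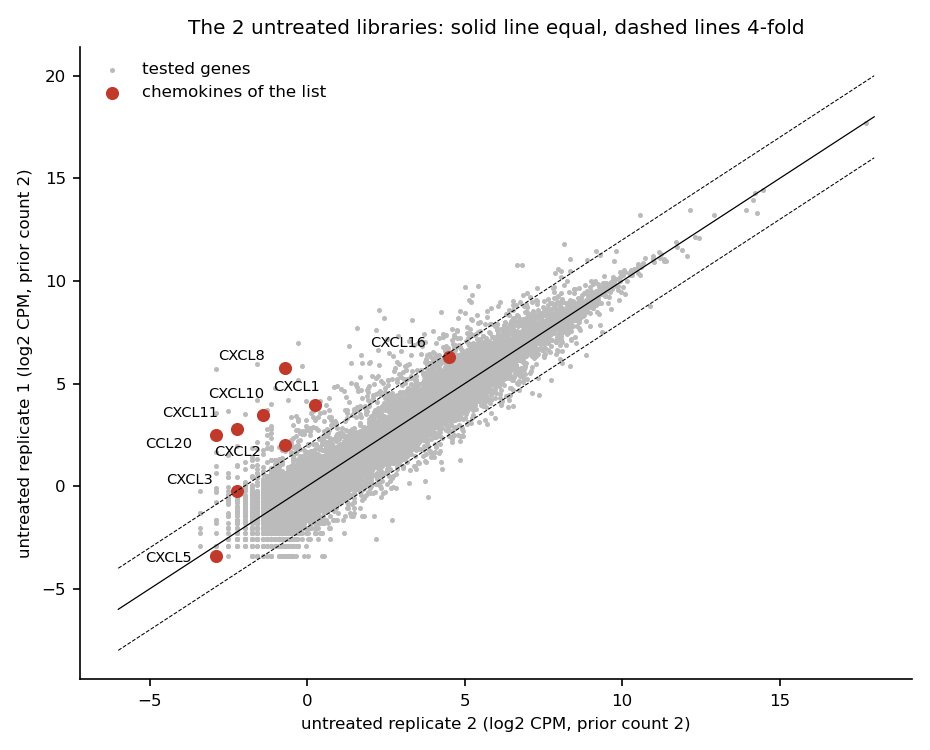
Level of every tested gene (grey) and of the 9 chemokines (red) in untreated replicate 1 against untreated replicate 2, in log2 CPM with a prior count of 2, with equality solid and 4-fold dashed. CXCL8, CCL20, CXCL11, CXCL10, CXCL1 and CXCL2 lie above the upper dashed line, CXCL3 on it, CXCL16 just inside it, and CXCL5 below equality.

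The comparison of CRNN with GFP asks what differs when the vector carries cornulin in place of GFP. No member rose or fell in it at an adjusted p under 0.05 (edgeR quasi-likelihood test over all genes), where 0.0183% of tested genes were called. DESeq2 and limma-voom called none either. In these fits of all 6 libraries, no member had an unadjusted p under 0.05 by any of the 3 tools. By edgeR 1.49% of tested genes were higher and 2.9% lower at that mark. The fitted log2 fold changes of CRNN over GFP were 1.87 for CXCL1 (SE 1.12), 0.96 for CXCL8 (SE 1.61), 1.52 for CXCL10 (SE 1.70), 3.44 for CXCL11 (SE 2.34) and 0.27 for CXCL16 (SE 0.50). CXCL2 and CXCL3 stood at -0.08 (SE 0.90) and -0.25 (SE 0.88). The adjusted p was 0.999 for each of the 7 by edgeR. The absence of unadjusted calls depended on the fit. When the untreated pair was dropped, edgeR put 1 of 4 tested members higher in CRNN at an unadjusted p under 0.05, with 394 of 15682 genes. A replicate block gave 1 of 7 members, with 301 of 16396 genes, and no filter gave 2 of 9, with 459 of 33425. With either untreated library left out, members also stood higher in CRNN at that mark, and fold changes from those fits are given below. Other scaling factors and the GC and length correction gave 0. No member passed over all genes in any of these fits.

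The libraries of CRNN lay above those of GFP without overlap for 5 of the 9 members, CXCL1, CXCL8, CXCL10, CXCL11 and CXCL16, against 19.4% of tested genes. For CXCL16 that gap was 25.57 against 25.55 CPM at its closest. Summed over the libraries of a group, CXCL1 had 85 counts in CRNN and 17 in GFP, a ratio of 3.57 (2.10 to 6.42, counting error only). CXCL11 had 18 counts in CRNN and 1 in GFP, a ratio of 12.9 (2.03 to 536), and CXCL10 had 21 and 5, a ratio of 3.0 (1.10 to 10.2). CXCL8 had 62 and 24, a ratio of 1.85 (1.14 to 3.09), and CCL20 8 and 3, a ratio of 1.90 (0.457 to 11.1). These intervals compare the pooled libraries and leave out the spread between replicates, which the edgeR test takes in.

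GFP replicate 2, the library of lowest depth, was the lower of the GFP pair for CXCL1, CXCL2, CXCL3, CXCL8 and CXCL16. The difference exceeded counting error only for CXCL8, with a ratio of replicate 1 to replicate 2 of 4.55 (1.36 to 23.8), and for CXCL16 at 1.48 (1.26 to 1.75). GFP replicate 1 was the lower for CXCL10, CXCL11 and CCL20, within counting error and on at most 3 counts per library. Without GFP replicate 1 the log2 fold change of CRNN over GFP for CXCL8 was 2.52 (SE 3.28), and without GFP replicate 2 it was 0.38 (SE 2.24). For CXCL10 these values were 0.97 (SE 2.61) and 2.15 (SE 2.70). CXCL11 stood at 2.27 without GFP replicate 1 (SE 3.31), and without GFP replicate 2 its remaining GFP library has 0 counts, so no fold is given. One estimate of the spread serves all 3 groups, the untreated pair included. With untreated replicate 2 left out, CXCL1 stood at 1.87 with an SE of 0.49 (adjusted p = 0.399, edgeR) and CXCL11 at 3.45 with an SE of 0.97 (adjusted p = 0.445, edgeR). With untreated replicate 1 left out, they stood at 1.89 (SE 0.55) and 3.44 (SE 1.32).

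Set against untreated cells, every tested member had a negative log2 fold change in the CRNN cells and in the GFP cells. None passed over all genes by edgeR, DESeq2 or limma-voom, where edgeR called 0.0061% of tested genes for CRNN and 0% for GFP. At an unadjusted p under 0.05, 4 of 7 members were lower in CRNN, CXCL2, CXCL8, CXCL10 and CXCL11, against 2.96% of tested genes lower and 1.52% higher. In GFP 5 of 7 were lower, CXCL1, CXCL8, CXCL10, CXCL11 and CXCL16, against 2.9% lower and 4.03% higher. DESeq2 gave 3 and 6 members lower at an unadjusted p under 0.05, and limma-voom gave 0 in both. The 2 comparisons share their untreated libraries, so they do not count as separate evidence. CXCL3, CXCL10 and CXCL11 were also tested only because the untreated libraries were part of the filter.

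For CRNN over untreated the log2 fold changes were -4.28 for CXCL8 (SE 1.48), -3.58 for CXCL10 (SE 1.25) and -3.08 for CXCL11 (SE 1.29). CXCL1 stood at -2.10 (SE 0.96), CXCL2 at -1.86 (SE 0.82), CXCL16 at -0.97 (SE 0.50) and CXCL3 at -0.40 (SE 0.82). For GFP over untreated they were -5.24 for CXCL8 (SE 1.61), -5.10 for CXCL10 (SE 1.499), -6.52 for CXCL11 (SE 1.94, on 1 count in GFP) and -3.97 for CXCL1 (SE 1.11). CXCL2 stood at -1.77 (SE 0.84), CXCL16 at -1.24 (SE 0.51) and CXCL3 at -0.15 (SE 0.84) in GFP. By limma-voom the values were smaller, at -1.96 for CXCL8, -1.92 for CXCL10, -1.24 for CXCL11, -1.19 for CXCL1 and -1.24 for CXCL2 in CRNN. In GFP they were -3.18 for CXCL8, -3.35 for CXCL10, -4.17 for CXCL11, -2.99 for CXCL1 and -1.15 for CXCL2 by limma-voom. The medians over the 7 by edgeR were -2.10 and -3.97, against -0.01 over all tested genes in both comparisons. The adjusted p lay between 0.989 and 0.992 for CRNN and between 0.711 and 0.974 for GFP by edgeR.

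These directions rested on untreated replicate 1. Without it, against untreated replicate 2 alone, CRNN cells were at log2 fold changes of 1.41 for CXCL8 (SE 0.75), 1.70 for CXCL11 (SE 1.21), 0.82 for CXCL1 (SE 0.61), 0.74 for CXCL10 (SE 0.93), 0.22 for CXCL2 (SE 0.71) and 0.20 for CXCL16 (SE 0.33). Each of these 6 had changed sign, and none passed (adjusted p = 1 for each, edgeR), while CXCL3 had too few counts to be tested. GFP cells without untreated replicate 1 stood at 0.42 for CXCL8 (SE 0.78) and 0.28 for CXCL2 (SE 0.73). CXCL1 at -1.07, CXCL10 at -0.79, CXCL11 at -1.74 and CXCL16 at -0.10 kept the negative sign in that fit.

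Without untreated replicate 2 the comparison was with untreated replicate 1 alone. That library had already been seen to be high for most of these genes. The negative direction was thus known beforehand, and the fit is no test of it. Median log2 fold changes over the tested members were -3.52 in CRNN and -5.32 in GFP. In that fit the single remaining untreated library is assumed to vary like the other groups. CXCL8 stood at -5.26 (SE 0.44) and CXCL3 at -1.16 (SE 0.76) in CRNN. CCL20, at -4.88 in CRNN (SE 0.56), was tested in that fit only through its 144 counts in untreated replicate 1. With no filter on low counts and all 6 libraries, CCL20, CXCL8 and CXCL10 fell in CRNN against untreated cells, where 0.419% of genes were called lower. In GFP against untreated cells CXCL1 and CXCL11 fell besides, against 0.455% of genes. These calls also rested on untreated replicate 1, which held 1408 counts of CXCL8 and 144 of CCL20, against 13 and 1 in untreated replicate 2.

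Genes around the chemokines were read from lists of other ligands, receptors, inducing cytokines, cytokine receptors, NF-kB genes, interferon signalling genes, regulators of messenger RNA decay and shedding proteases. With all 6 libraries no gene of these 8 lists rose or fell over all genes in any of the 3 comparisons by edgeR. At an unadjusted p under 0.05, 10 of 105 tested list genes were higher and 1 lower in CRNN against GFP, where 1.49% and 2.9% of all tested genes were. Against untreated cells 4 were higher and 8 lower in CRNN, where 1.52% and 2.96% of all tested genes were, and 5 higher and 15 lower in GFP, where 4.03% and 2.9% were. The calls against untreated cells moved with the untreated library kept. Untreated replicate 1 had already been seen to be high for some genes of the ligand, cytokine, cytokine receptor, NF-kB and interferon lists. A fall against that library alone was thus known beforehand for such genes. The counts without untreated replicate 2, given last, are therefore no test of these lists, and their background shares do not make them one. Without untreated replicate 1, 6 of the 105 were higher and 0 lower in CRNN at an unadjusted p under 0.05, against 1.18% and 0.402% of all tested genes, and 7 higher and 2 lower in GFP, against 2.55% and 0.47%. None passed over all genes by edgeR in that fit. Without untreated replicate 2, 18 of 108 fell and 2 rose in CRNN, against 3.5% and 1.9% of all tested genes, and 23 fell and 0 rose in GFP, against 3.4% and 2.05%.

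Of 26 other chemokine ligands found in the table, 7 were tested and 18 had at most 3 counts in every library. CCL2, the main attractant of monocytes, was the 1 tested ligand for which untreated replicate 1 exceeded all others by 4-fold, and 3 of the 7 were lower in GFP than in untreated cells at an unadjusted p under 0.05, against 2.9% of all tested genes. The median log2 fold change of the 7 in GFP over untreated cells moved from -0.72 to -0.25 without untreated replicate 1. CCL2 had 11.2 and 15.4 CPM in CRNN, 2.39 and 5.91 CPM in GFP, and 83.0 and 13.8 CPM in untreated cells. Its log2 fold change was 1.71 for CRNN over GFP (SE 0.75) and -3.57 for GFP over untreated (SE 0.79). In GFP over untreated it stood at -1.78 without untreated replicate 1 (SE 0.45) and at -4.37 without untreated replicate 2 (SE 0.45). CX3CL1, a membrane-bound ligand like CXCL16, had 81.5 and 79.0 CPM in CRNN, 35.7 and 65.0 CPM in GFP, and 115 and 59.0 CPM in untreated cells.

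Of 23 chemokine receptors, 7 were tested, and none of them was over 4-fold higher in untreated replicate 1. CXCR2, the receptor of the neutrophil chemokines, had between 1 and 17 counts per library, and CXCR6, the receptor of CXCL16, between 13 and 44. ACKR3, a scavenging receptor that binds CXCL11 and CXCL12, had 28.2 and 30.3 CPM in CRNN, 4.93 and 16.8 CPM in GFP, and 4.35 and 13.9 CPM in untreated cells. Both CRNN libraries lay above the other 4, with a log2 fold change over GFP of 1.44 (SE 0.62), and it was 1 of 2 receptors, of 7 tested, higher in CRNN than in GFP at an unadjusted p under 0.05, against 1.49% of all tested genes. CCR1, which binds CCL5 and was not tested, had 2 and 2 counts in CRNN, 3 and 1 in GFP, and 70 and 4 in the untreated libraries.

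Of 8 tested inducing cytokines, LIF and IL1B passed that 4-fold mark in untreated replicate 1, and 3 (LIF, IL1B and IL1A) were lower in CRNN than in untreated cells at an unadjusted p under 0.05, against 2.96% of all tested genes. Without untreated replicate 1 the log2 fold changes of CRNN over untreated cells were -0.11 for LIF (SE 0.56), 0.10 for IL1B (SE 0.33) and 0.41 for IL1A (SE 0.55). LIF, of the IL-6 family, had between 14.3 and 53.2 CPM in the CRNN and GFP libraries, and 362 and 18.9 CPM in untreated cells. IL1B, a strong inducer of CXCL8, had 12.7 and 13.5 CPM in CRNN, 16.2 and 11.1 CPM in GFP, and 87.2 and 12.2 CPM in untreated cells. IL1A had 1.41 and 1.25 CPM in CRNN, 3.06 and 1.52 CPM in GFP, and 11.6 and 1.00 CPM in untreated cells. Its receptor IL1R1 had 11.6 and 13.5 CPM, 2.96 and 10.8 CPM, and 95.5 and 7.85 CPM in the same order of groups. Of 18 tested cytokine receptors and adaptors, 2 were higher in CRNN than in GFP and 4 lower in GFP than in untreated cells at an unadjusted p under 0.05, against 1.49% and 2.9% of all tested genes. The receptor list's median log2 fold changes in these 2 comparisons were 0.14 and -0.30, and without untreated replicate 1 they were 0.16 and -0.20. The cytokine list's median log2 fold change was -2.01 in CRNN and -0.74 in GFP over untreated cells, and it was 0.21 and 1.17 without untreated replicate 1.

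Of 21 tested NF-kB genes, TNFAIP3, which restrains NF-kB, and RELB, a subunit, were over 4-fold higher in untreated replicate 1, while the list's medians over untreated cells were -0.22 in CRNN and -0.37 in GFP. Without untreated replicate 1 these medians were 0.24 and 0.18. TNFAIP3 had 9.29 and 8.29 CPM in CRNN, 14.96 and 9.02 CPM in GFP, and 291 and 5.32 CPM in untreated cells, with a log2 fold change of -3.62 for GFP over untreated cells (SE 1.28). Both GFP libraries lay above untreated replicate 2, and without untreated replicate 1 that value turned to 1.16 (SE 0.38), while without untreated replicate 2 it was -4.60 (SE 0.37). REL, a subunit, had 12.7 and 11.8 CPM in CRNN, 12.05 and 16.1 CPM in GFP, and 6.65 and 9.53 CPM in untreated cells. Of 21 tested interferon signalling genes, GBP1 was over 4-fold higher in untreated replicate 1, at 504 CPM against 23.3 to 59.0 CPM elsewhere. In this list 4 were higher and 0 lower in CRNN than in GFP at an unadjusted p under 0.05, against 1.49% and 2.9% of all tested genes. The list's median log2 fold change there was 0.53, and 0.56 without untreated replicate 1. Against untreated cells 2 were higher and 1 lower in CRNN, against 1.52% and 2.96% of all tested genes. In GFP 2 were higher and 5 lower, against 4.03% and 2.9%. Without untreated replicate 1 the list's medians over untreated cells moved from 0.01 to 0.46 in CRNN and from -0.20 to -0.06 in GFP. STAT2, a subunit of the factor that type I interferon activates, had 222 and 216 CPM in CRNN, 110 and 122 CPM in GFP, and 124 and 139 CPM in untreated cells. STAT2 was highest in the CRNN libraries, while CXCL10 and CXCL11 were highest in untreated replicate 1. IRF7, an interferon-induced activator, had 32.0 and 25.8 CPM in CRNN, 11.3 and 10.5 CPM in GFP, and 29.6 and 10.2 CPM in untreated cells.

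None of 15 tested regulators of messenger RNA decay and none of 8 tested shedding and cleavage genes passed the 4-fold mark in untreated replicate 1. MMP1, a collagenase, was 1 of 2 cleavage genes higher in CRNN than in GFP at an unadjusted p under 0.05, against 1.49% of all tested genes. It had 70.6 and 96.3 CPM in CRNN, 3.48 and 40.6 CPM in GFP, and 23.3 and 22.2 CPM in untreated cells. HNRNPD, which binds AU-rich motifs, had 34.0 and 35.4 CPM in CRNN, 42.3 and 88.8 CPM in GFP, and 36.1 and 32.3 CPM in untreated cells. In the longest protein-coding transcript of GENCODE release 44, CXCL1, CXCL2, CXCL3 and CXCL8 held the AU-rich motif TTATTTATT, which 9.30% of 19702 protein-coding genes hold. The copies numbered 3, 5, 1 and 1. CXCL2 had the densest shorter motif ATTTA, 8.97 copies per kilobase, against a median of 0.976 over protein-coding genes. CXCL10, CXCL11 and CXCL16 held 2, 1 and 2 copies of ATTTA and none of the longer motif. CXCL5 and CCL20 also lacked the longer motif but held 11 and 4 copies of ATTTA, or 4.52 and 4.77 per kilobase.

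**Figure D4:**
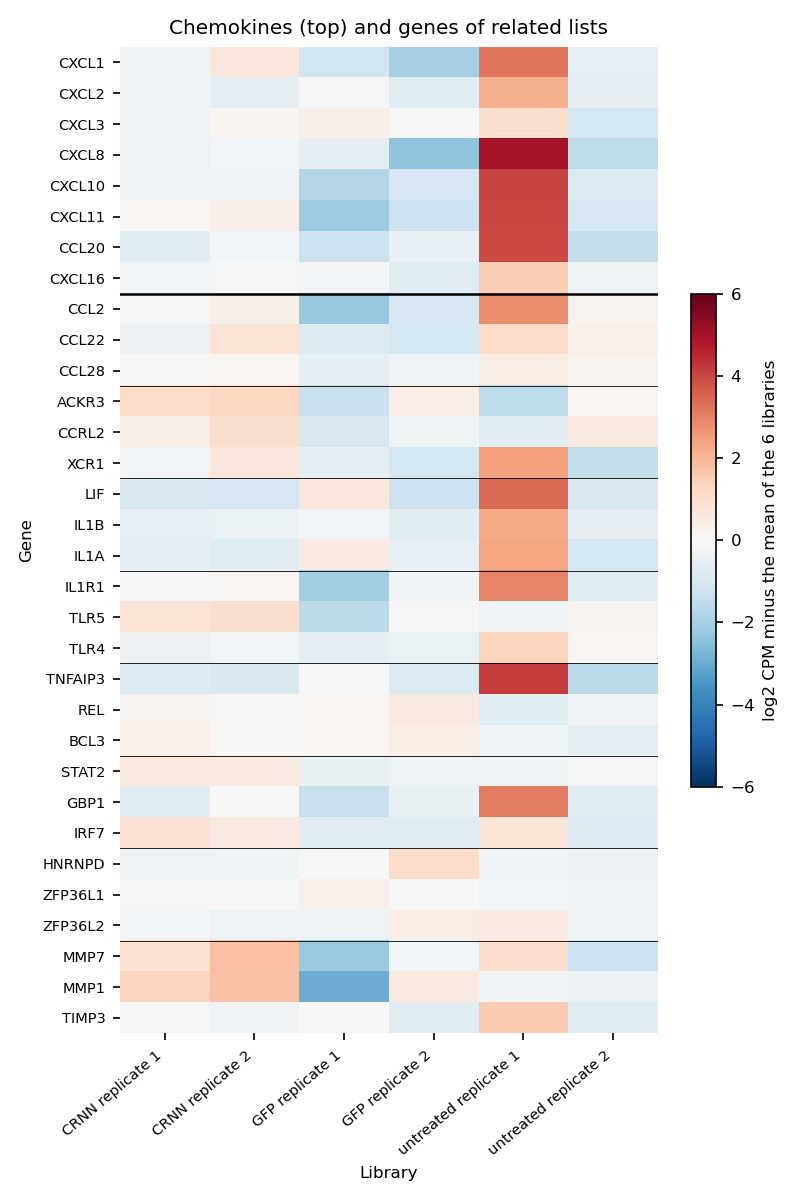
Level of 8 chemokines (top, CXCL5 left out for lack of counts) and of 3 genes from each related list, as log2 CPM minus the mean of the 6 libraries. Untreated replicate 1 is the warmest column for the chemokines, LIF, IL1B, IL1A, IL1R1, TNFAIP3 and GBP1, while STAT2 and ACKR3 are highest in the CRNN columns.

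Genes whose levels over the 6 libraries were most like the neutrophil chemokines were sought by Pearson correlation with the mean of CXCL1, CXCL2, CXCL3 and CXCL8, as a description over 6 points of which untreated replicate 1 is far from the rest. TUBB2A, a tubulin (r = 0.996), and KRT17, a keratin of activated squamous epithelium (r = 0.995), came first, followed by SOCS2, CLIP4 and SFN. KRT17 had 176 and 182 CPM in CRNN, 173 and 67.6 CPM in GFP, and 1771 and 113 CPM in untreated cells. Most like CXCL10 and CXCL11 were CP, which encodes ceruloplasmin (r = 0.997), SCD5 (r = 0.995), NCR3LG1, AGFG1 and AMD1. CP had 2.09 and 3.03 CPM in CRNN, 0.831 and 1.36 CPM in GFP, and 19.9 and 1.52 CPM in untreated cells.

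Other features of untreated replicate 1 moved with the chemokines. It had the lowest share of counts on mitochondrial genes, 22.5% against 25.6% to 29.3% in the other libraries. The 7 endothelial markers found summed to 53.4 CPM there, of which CDH5 alone had 49.9 CPM, and to between 8.79 and 14.3 CPM elsewhere. VWF was also highest there, at 3.06 CPM against 0.727 to 1.60 CPM elsewhere. CLDN5, at 0.420 CPM, lay within the range of the other libraries, and TEK was at 0. EMCN and ROBO4 were at 0 in every library. Immune markers summed to 6.88 CPM in untreated replicate 1 and fibroblast markers to 5.58 CPM, within the range of the other libraries. The part of these features in the chemokine levels was not tested.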

How the data were processed

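RNA of Cal27 cells was sequenced as stranded, paired libraries from total RNA, per the labels. The deposited table holds raw counts per versioned Ensembl gene, whole numbers without normalization. Among the tools in the submitters' processing notes are the aligner STAR 2.6, the counter HTSeq 0.6.1, FastQC 0.11.7, edgeR and bcl2fastq, with the builds hg19, GRCh37 and GRCh38 and no roles. The annotation and strand setting of the counting are not given in the sources used here. Names, loci and exon lengths came from GENCODE release 44 (GRCh38) by identifier without version, and 51996 of 57820 identifiers had a name.

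Genes were kept by filterByExpr (minimum count 10, minimum total 15), which left 16396 genes, 7 of the 9 chemokines among them. All 6 libraries were fitted with edgeR 4.0.16 in R 4.3.3 (TMM factors, quasi-likelihood F test, 3 group means). Benjamini-Hochberg adjustment ran over the whole tested table, with a threshold of 0.05, and SE is the log2 fold change divided by the square root of F. Counting intervals are exact (Poisson, or Clopper-Pearson for ratios, 95%) and cover counting error only. The tests were tried on simulated data.

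Alternatives were other scaling factors, other filters, DESeq2 1.42.0, limma-voom (limma 3.58.1), fits of 2 groups, a replicate block, a correction of GC content and length by splines of 4 degrees of freedom, and each library left out. The text names every member, CRNN, up to 3 genes per list with the smallest p in any comparison, and the 5 genes most like each chemokine group. CX3CL1, CCR1, CXCR2, CXCR6, RELB and markers with their values were named besides, after the values were seen. The members and lists were chosen with earlier results of these data known.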

Additional observations from a re-analysis of the deposited data

How the results depend on the processing

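Of the refits of single chemokines under the alternatives, 301 kept direction and side of the threshold, 18 kept direction and now passed, and 17 changed sign. The changes of sign outside the refits that leave out a library were CXCL2 in CRNN against GFP at 0.0646 with the replicate block and 0.13 with GC and length correction and the block, and CXCL3 under limma-voom at 0.0776 for CRNN and 0.36 for GFP against untreated cells. In CRNN over untreated cells the replicate block gave -2.55 for CXCL8, -2.65 for CXCL10, -2.06 for CXCL11 and -1.32 for CXCL1, smaller than without it. With 1 library left out, log2 fold changes of CRNN over GFP ranged from -0.33 to 0.35 for CXCL2 and from -0.54 to 0.0849 for CXCL3. For CRNN over untreated cells they ranged from -2.99 to 0.82 for CXCL1, -2.67 to 0.22 for CXCL2, -5.26 to 1.41 for CXCL8, -4.54 to 0.74 for CXCL10, -4.05 to 1.70 for CXCL11 and -1.60 to 0.20 for CXCL16. For GFP over untreated cells they ranged from -2.59 to 0.28 for CXCL2, -0.93 to 0.0496 for CXCL3 and -6.80 to 0.42 for CXCL8. The number of chemokines called, 0 in each comparison, became 3 and 5 with no filter in CRNN and GFP against untreated cells. With 1 library left out it stayed 0 in both, except without untreated replicate 2, where untreated replicate 1 alone made up the untreated group. Of all genes, 3 were called in CRNN against GFP, 1 in CRNN against untreated and 0 in GFP against untreated cells. These became 34, 152 and 195 with no filter and 22, 7 and 29 with DESeq2, and for CRNN against GFP 13 with only those groups fitted and 1 with the GC and length correction. With 1 library left out they ranged from 0 to 15, 1 to 957 and 0 to 966, with the highest of each without untreated replicate 2. Without untreated replicate 1 they were 13, 4 and 0, and without either GFP library 0 in CRNN against GFP. The replicate block called 4, 1 and 0 genes and 0 chemokines, and replicate differences correlated between groups with r = 0.26, -0.07 and 0.19 over 11729 genes, so the numbers were not taken to pair libraries. The causes were not tested. Outside untreated replicate 1, every chemokine but CXCL16 had at most 57 counts, which limits what these libraries can show.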
